A study of Mus musculus with 6 samples.

Results

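The genes described here are 45 mouse genes of ribosome biogenesis and the nucleolus, taken from a list of gene symbols: the rRNA processing factors of the small and large ribosomal subunits, the proteins of the 2 kinds of small nucleolar ribonucleoprotein (snoRNP), the abundant nucleolar phosphoproteins, and RNA polymerase I with its initiation factor. The members were chosen by symbol, as rows of the array whose only annotated gene symbol is a listed gene, with the brightest row per symbol. That last step decided nothing, because each of the 42 measured members had 1 such row. The list was proposed with earlier results of these arrays known, so the counts and medians over the members are a description of them and carry no test of the list. The 42 measured members are part of 30176 genes in all. Nop56, Gnl3 and Ebna1bp2 had no row of their own.

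The cells were microglia, the phagocytes that reside in the brain, and they were grown in culture from newborn pups of the outbred mouse strain CD1. Each culture pooled 5 pups, and the cultures carry the numbers 3, 4 and 6. Each culture was held for 6 h at 21% oxygen (normoxia) or at 1% oxygen (hypoxia) in a hypoxia chamber and gave 1 array per condition, so there were 3 arrays in each group and 6 in all. The 2 arrays of a culture share their pool of pups, no genetic change or other agent is named in the labels, and the pups' sex is not given in the sources used here. RNA extracted with TRIZOL was labelled with biotin and hybridised to one-colour Affymetrix arrays, and the deposited values are log2 intensities after robust multi-array averaging (RMA), which corrects background, gives every array the same distribution of probe intensities and summarises the probes of a transcript cluster. A difference of 1 on this scale is a doubling of the intensity, and levels are not comparable between genes, because each gene has its own probes.

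Ribosomes are assembled in the nucleolus. RNA polymerase I transcribes a long precursor that holds the rRNAs of both subunits, box C/D snoRNPs guide its methylation and box H/ACA snoRNPs the conversion of uridines to pseudouridines, and a large set of helicases, GTPases and scaffold proteins cuts, folds and exports the 2 subunits. The genes of these factors are often co-regulated, MYC being the best known of their activators, and cells short of oxygen or energy are known to lower the making of ribosomes. The arrays measured the mRNAs of the factors, not rRNA or ribosomes.

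Array medians lay between 5.84 and 5.92 over 72688 features, and the correlation between arrays of the same group was 0.987 to 0.993. Of 12 microglial markers, 11 were measured, with mean levels from 8.46 (Tmem119) to 12.8 (C1qa). All 6 of 6 genes listed as a check of low oxygen (Egln3, Egln1, Slc2a1, Bnip3, Vegfa and Ankrd37) were higher in all 3 cultures at 1% oxygen, and 5 of them passed an adjusted p of 0.05 in limma without and all 6 with the culture as a block. The measured differences in bulk RNA cannot tell apart fewer cells of a type and less RNA of a gene per cell.

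The 5 promoter windows printed here show the sequence at the starts of members that are described further on. Each runs from 250 bases before to 50 bases after an annotated start, and the sequences are those of RefSeq on GRCm38.p6. Nop58, Gtpbp4 and Nol8 are shown because they are the members that passed the threshold in the fit with the culture as a block, so they were picked after their values had been seen. Their windows lie at chr1:59684756-59685055 on the plus strand, chr13:8995963-8996262 on the minus strand and chr13:49652828-49653127 on the plus strand. Capitals mark ACGTG, the core of the hypoxia response element, which is contained in the E-box shown further on and reads CACGT on the other strand. They also mark CGGAAG, the core of sites bound by ETS family factors, whose reverse complement is CTTCCG.
Nop58: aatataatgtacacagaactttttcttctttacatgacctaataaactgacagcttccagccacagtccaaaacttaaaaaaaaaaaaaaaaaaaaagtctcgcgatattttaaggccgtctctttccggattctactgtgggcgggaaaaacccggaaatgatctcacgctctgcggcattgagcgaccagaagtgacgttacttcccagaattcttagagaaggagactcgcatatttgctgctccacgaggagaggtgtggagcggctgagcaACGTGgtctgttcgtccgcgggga
Gtpbp4: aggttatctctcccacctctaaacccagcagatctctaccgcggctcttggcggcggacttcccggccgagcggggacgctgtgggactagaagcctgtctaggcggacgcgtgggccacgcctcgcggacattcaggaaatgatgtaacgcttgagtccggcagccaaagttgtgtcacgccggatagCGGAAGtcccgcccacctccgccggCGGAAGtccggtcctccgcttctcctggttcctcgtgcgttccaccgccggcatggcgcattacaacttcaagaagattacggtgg
Nol8: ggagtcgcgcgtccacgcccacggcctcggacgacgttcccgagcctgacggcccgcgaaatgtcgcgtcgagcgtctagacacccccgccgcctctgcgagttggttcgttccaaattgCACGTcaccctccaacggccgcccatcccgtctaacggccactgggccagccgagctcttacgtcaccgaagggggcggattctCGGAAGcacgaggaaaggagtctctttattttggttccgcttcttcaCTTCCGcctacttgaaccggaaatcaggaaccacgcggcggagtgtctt
Nol11 and Wdr43 are shown because, of the members with CACGTG, the E-box that reads the same on both strands and is the site preferred by MYC with its partner MAX, they had the largest differences. Their windows lie at chr11:107189332-107189631 on the minus strand and chr17:71615965-71616264 on the plus strand, and capitals mark CACGTG only.
Nol11: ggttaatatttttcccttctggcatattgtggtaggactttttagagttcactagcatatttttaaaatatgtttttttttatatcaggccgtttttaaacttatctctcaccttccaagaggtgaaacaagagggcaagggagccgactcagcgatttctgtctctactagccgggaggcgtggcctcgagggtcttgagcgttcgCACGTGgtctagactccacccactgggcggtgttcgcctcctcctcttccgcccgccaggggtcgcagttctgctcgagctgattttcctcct
Wdr43: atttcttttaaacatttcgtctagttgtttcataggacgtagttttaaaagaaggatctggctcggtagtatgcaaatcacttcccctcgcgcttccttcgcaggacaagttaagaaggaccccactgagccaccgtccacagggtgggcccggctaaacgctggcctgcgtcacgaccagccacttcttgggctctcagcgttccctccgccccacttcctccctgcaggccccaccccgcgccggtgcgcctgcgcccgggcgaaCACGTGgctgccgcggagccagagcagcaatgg
The E-box began 43 bases before the start of Nol11 and at base 18 of Wdr43, counting the start as base 1. ACGTG began at base 27 of Nop58, and the nearest CGGAAG, on either strand, began 36 bases before the start of Gtpbp4 and at base 2 of Nol8.

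A promoter window was at hand for 38 of the 45 members, 43 windows in all, and Fbl, Npm1, Nol6, Rrp12, Gnl2, Bop1 and Rrs1 had no entry. CACGTG occurred in 7 of the 43 windows (16.3%), those of Mybbp1a, Nol11, Wdr43, Utp20, Nop2, Pes1 and Rrn3, and in 7.15% of 32851 windows of the whole table. ACGTG on either strand occurred in 15 windows of members (34.9%) and in 19.6% of all windows, and CGGAAG on either strand in 25 (58.1%) and in 16.9%. The ACGTG and CGGAAG searches were added after values had been seen. The median difference between 1% and 21% oxygen, on the log2 scale, was -0.22 for the 7 measured members with CACGTG and -0.18 for the 28 without it. For ACGTG it was -0.22 (15 members) and -0.18 (20), and for CGGAAG -0.22 (22) and -0.15 (13). These differences between members with and without a motif were not tested, and a match of letters is not a bound site.

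At 1% oxygen, 38 of the 42 measured members (90.5%) had a lower mean level than at 21% oxygen, with 40.3% of all genes below 0. The median difference, hypoxia minus normoxia on the log2 scale, was -0.16, with -0.22 in culture 3, -0.19 in culture 4 and -0.11 in culture 6 (SD over cultures 0.0541, n = 3). The median of all 30176 genes was 0.03. By culture, 40, 35 and 33 members were below 0 in cultures 3, 4 and 6. The level was lower in each of the 3 cultures for 30 members (71.4%), as for 17.5% of all genes, and it was higher in each for 1 member, Rrp1b, as for 24.8% of all genes. The 3 hypoxia arrays lay below the 3 normoxia arrays for 11 members (26.2%), as for 7.58% of all genes, and lay above them for 0 members, as for 8.24% of all genes. The 4 members above 0 were Polr1c, Rrs1, Rrp1b and Noc2l, all within 0.08 of 0. After median centring Rrp1b and Noc2l were below 0, and after quantile normalization or cyclic loess Fbl, Nop16 and Pes1 were above it.

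No member passed an adjusted p of 0.05 in limma over all genes without a block, with 0 called lower (0.0166% of all genes) and 0 called higher (0.209% of all genes). At an unadjusted p under 0.05 in the same fit, 14 members (33.3%) were lower, as were 6.1% of all genes, and 0 were higher, with 4.28% of all genes. The labels tie the 2 arrays of each culture. With the culture as a block 3 members, Nop58, Gtpbp4 and Nol8, fell at the same threshold (7.1% of members, 0.116% of all genes). None rose (0.421% of all genes). Of the other genes in the members' range of mean levels, 0.19% fell at that threshold. At an unadjusted p under 0.05 in the blocked fit, 22 members (52.4%) were lower, with 9.26% of all genes, and 0 were higher, with 7.68%. The p-values without the block measure the spread between the cultures of one condition, and those with it the spread of the within-culture difference. Leaving out culture 3 from the blocked fit left 0 members called, with adjusted p-values in limma of 0.164 for Nop58, 0.178 for Gtpbp4 and 0.188 for Nol8, and leaving out culture 4 or culture 6 left 2, with Nol8 at 0.0519 and 0.0789.

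**Figure D1:**
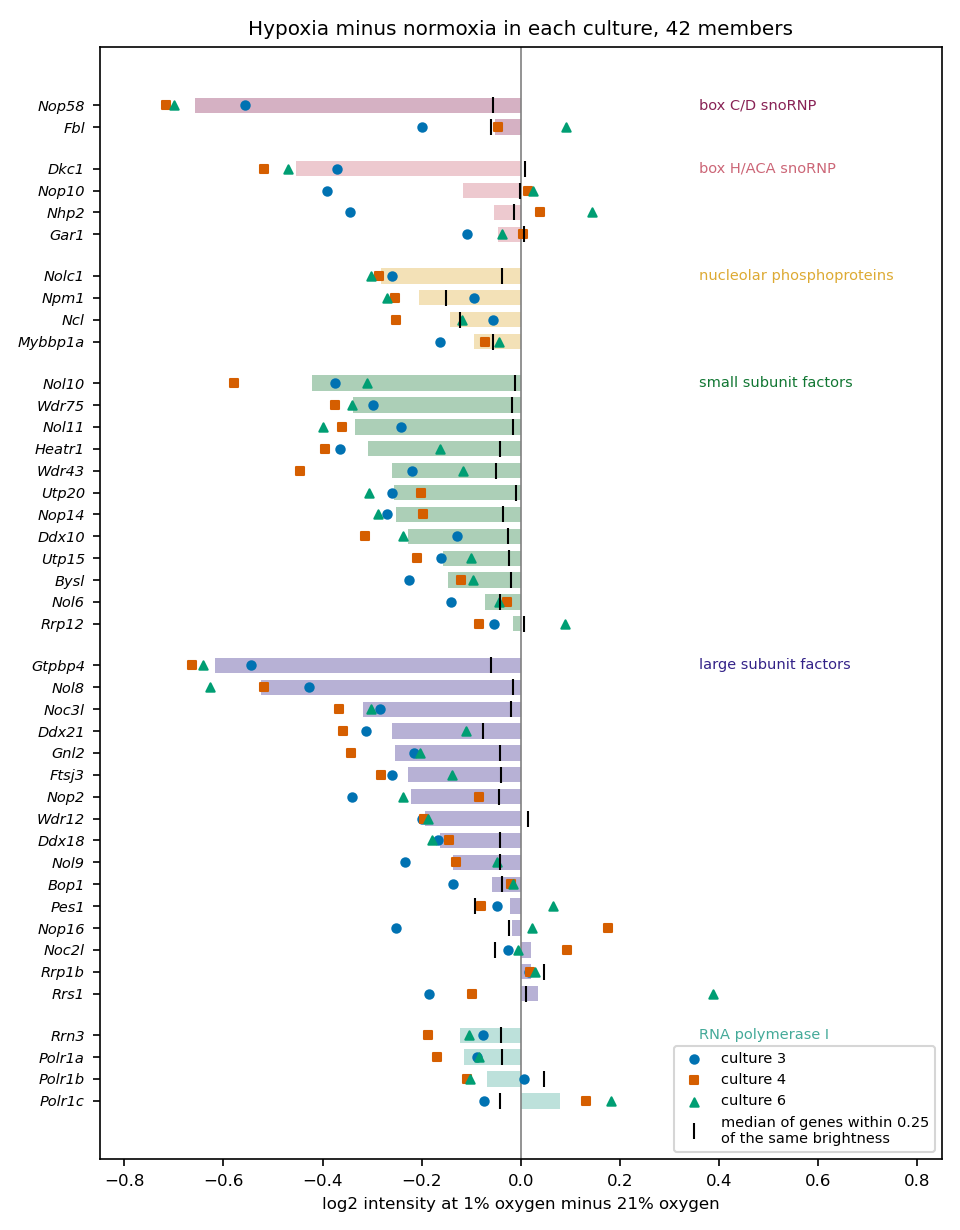
Log2 intensity at 1% oxygen minus that at 21% oxygen (x axis) for each of the 42 measured members (y axis), grouped by role, with 1 symbol per culture, a bar for the mean of the 3 cultures and a black tick for the median of all genes within 0.25 log2 units of the member's own mean level. Of the bars, 38 point below 0, Nop58, Gtpbp4 and Nol8 reach furthest, and the symbols of Rrs1, Nop16 and Nhp2, among others, lie on both sides of 0.

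Box C/D snoRNPs carry Nop58, Nop56 and the methyltransferase fibrillarin (Fbl). Nop58 measured 9.97, 9.37 and 9.59 in cultures 3, 4 and 6 at 21% oxygen and 9.41, 8.65 and 8.89 at 1% oxygen. Each culture was lower at 1% oxygen, but the groups overlapped, because culture 3 at 1% oxygen lay just above culture 4 at 21%. The difference was -0.66 (-0.56, -0.72 and -0.70 by culture), a change of -36.6% in intensity, the furthest below 0 of the measured members. Its standard error was 0.21 without and 0.07 with the block, and the adjusted p in limma was 0.410 and 0.0221. Of the 1235 other genes within 0.25 log2 units of its mean level, 0.081% had a lower difference.

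Fibrillarin is the enzyme of the same particle. Its levels were 9.54, 9.33 and 9.54 in cultures 3, 4 and 6 at 21% oxygen and 9.34, 9.28 and 9.63 at 1% oxygen. The groups overlapped and culture 6 was higher at 1% oxygen, so the difference of -0.05 (SE 0.11) was smaller than its error. The difference between the 2 genes' changes was not tested. The only row for Nop56, the partner of Nop58, is shared with the snoRNA gene Snord57, which lies within Nop56. That row measured 9.10, 8.77 and 9.06 at 21% oxygen and 8.76, 8.54 and 8.64 at 1% oxygen, with a difference of -0.33, and how much of it belongs to either gene cannot be told apart.

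Of the box H/ACA proteins, dyskerin (Dkc1), the pseudouridine synthase that also sits in telomerase, had the largest difference of the 4. Dkc1 measured 8.02, 7.65 and 7.90 in cultures 3, 4 and 6 at 21% oxygen and 7.65, 7.13 and 7.43 at 1% oxygen. All 3 hypoxia arrays lay below all 3 normoxia arrays, though only just, and each culture was lower. The difference was -0.45 (SE 0.15 without the block and 0.07 with it), with adjusted p-values in limma of 0.409 and 0.0550, so Dkc1 did not pass the threshold in either fit. The core protein Nop10 measured 8.05, 7.56 and 7.80 at 21% oxygen and 7.66, 7.57 and 7.82 at 1% oxygen. Its groups overlapped, and its difference of -0.12 came from culture 3 (-0.39), with 0.01 and 0.02 in cultures 4 and 6. Nhp2 had the same shape, with -0.35, 0.04 and 0.14 by culture, and Gar1 differed by -0.05.

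The 4 nucleolar phosphoproteins were each lower in all 3 cultures, as were 17.5% of all genes. Their differences ran from -0.28 to -0.09, with a median of -0.17. Nolc1, which binds snoRNPs and shuttles between the nucleolus and Cajal bodies, measured 8.77, 8.56 and 8.81 in cultures 3, 4 and 6 at 21% oxygen and 8.51, 8.27 and 8.51 at 1% oxygen. The groups did not overlap and the 3 cultures changed by nearly the same amount, -0.26, -0.29 and -0.30. The difference was -0.28 (SE 0.10), with an adjusted p in limma of 0.427 without and 0.120 with the block. Nucleophosmin (Npm1), a histone chaperone and the brightest member, measured 11.27, 11.11 and 11.21 at 21% oxygen and 11.18, 10.86 and 10.94 at 1% oxygen. Here culture 3 at 1% oxygen lay above culture 4 at 21%, so the groups overlapped, and the difference was -0.21 (SE 0.10). Nucleolin (Ncl), which binds the rRNA precursor, differed by -0.14, and Mybbp1a by -0.09.

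**Figure D2:**
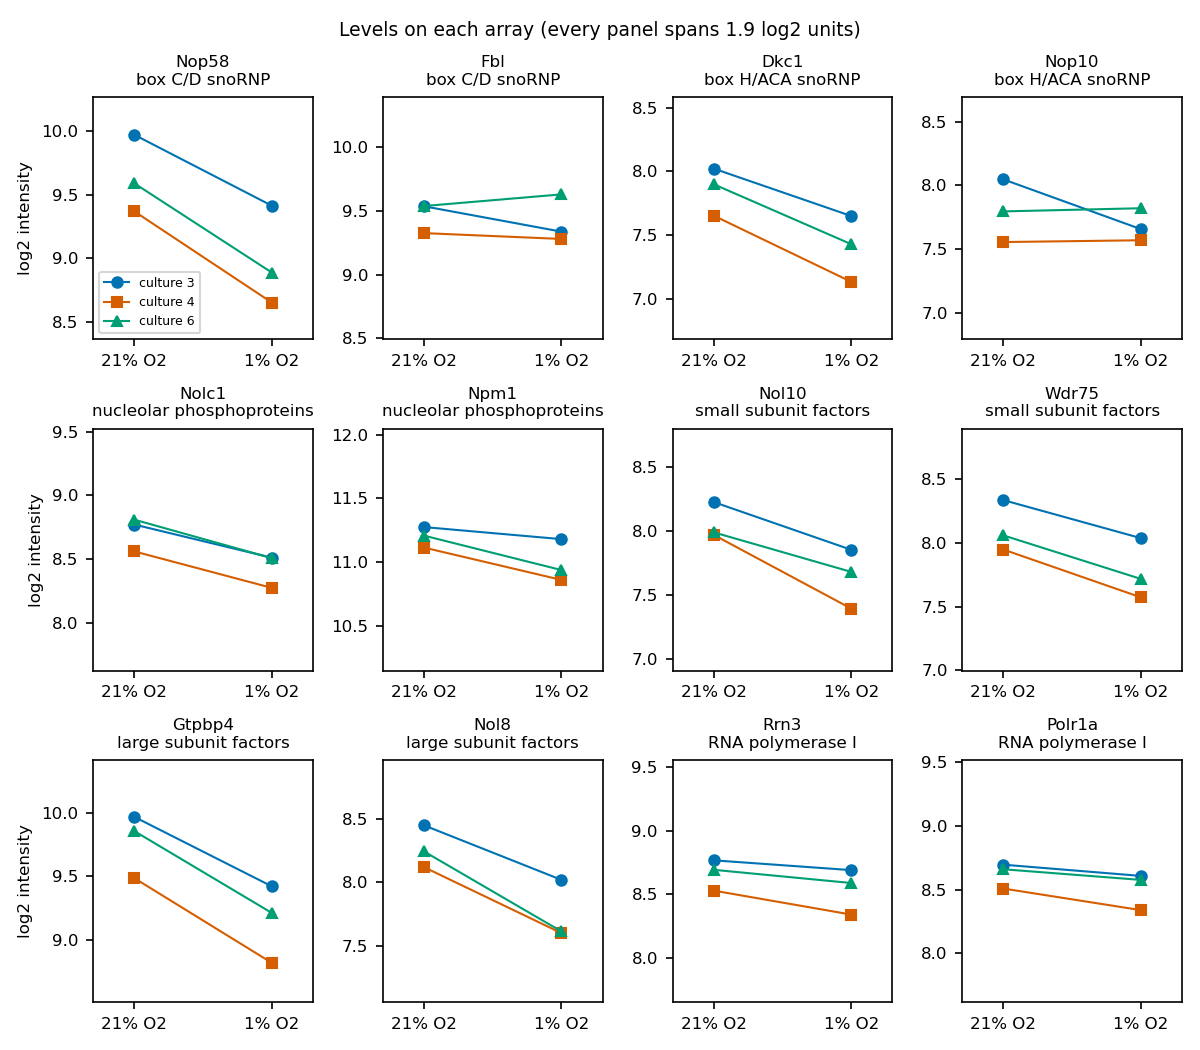
Log2 intensity (y axis, 1.9 log2 units in every panel) at 21% and 1% oxygen (x axis) for 12 members, the 2 with the largest absolute difference in each role, with 1 line per culture. The lines of Nop58, Gtpbp4, Nol8, Dkc1 and Nol10 end lower at 1% oxygen in each culture, with culture 3 above culture 4 at both ends, while those of Fbl and Nop10 lie flat or cross.

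The 12 small subunit factors were lower on average in 12 of 12 and in all 3 cultures in 11, Rrp12 being the exception, and their median difference was -0.25. Over all genes 17.5% were lower in all 3 cultures, and over the other genes in the members' range of mean levels 30.9%. At an unadjusted p under 0.05, 6 of the 12 were lower without and 9 with the block. The shares of all genes were 6.1% and 9.26%, and those of the other genes in the range 11.0% and 17.3%. After adjustment 0 of the 12 passed in either fit. Nol10, whose counterpart in yeast is a part of the small subunit processome, measured 8.23, 7.97 and 7.99 in cultures 3, 4 and 6 at 21% oxygen and 7.85, 7.39 and 7.68 at 1% oxygen. The groups did not overlap, and culture 4 had the largest change. The difference was -0.42 (SE 0.13), with adjusted p-values in limma of 0.396 and 0.0867. Wdr75 measured 8.34, 7.95 and 8.06 at 21% oxygen and 8.04, 7.57 and 7.72 at 1% oxygen. Its groups overlapped, while the difference within each culture was alike, -0.30, -0.37 and -0.34, and the adjusted p with the block was 0.0903 in limma.

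Wdr75 is one of 5 members whose yeast or human counterparts belong to the complex that binds the 5′ end of the rRNA precursor first. That complex is also needed for the precursor's transcription. The other 4 are Nol11, Heatr1, Wdr43 and Utp15, with differences of -0.33, -0.31, -0.26 and -0.16. All 5 were lower in each of the 3 cultures and 0 of them passed the threshold with the block. Over all genes 17.5% were lower in each culture, as were 30.9% of the other genes in the members' range of mean levels. The count covers these 5 members and not the whole complex. Utp4, which also belongs to that complex but is not a member, was not lower in each culture. It differed by -0.08, with -0.08, 0.01 and -0.18 in cultures 3, 4 and 6. The remaining members among the small subunit factors were Utp20 (-0.26), Nop14 (-0.25), the helicase Ddx10 (-0.23), Bysl (-0.15), Nol6 (-0.07) and the export factor Rrp12 (-0.02).

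The 16 measured large subunit factors had a median difference of -0.18, with 13 below 0 and 11 lower in all 3 cultures. Over all genes 40.3% were below 0 and 17.5% were lower in all 3 cultures. Gtpbp4, a GTPase that stays on the large subunit precursor until it reaches the cytoplasm, measured 9.97, 9.48 and 9.85 in cultures 3, 4 and 6 at 21% oxygen and 9.42, 8.82 and 9.21 at 1% oxygen. The groups did not overlap, and the 3 cultures changed by -0.54, -0.66 and -0.64. The difference was -0.62 (-34.8% in intensity), with SEs of 0.17 and 0.06 and adjusted p-values in limma of 0.374 without and 0.0229 with the block. The nucleolar protein Nol8 measured 8.45, 8.12 and 8.24 at 21% oxygen and 8.02, 7.60 and 7.61 at 1% oxygen. Its groups did not overlap either, with the largest change in culture 6 (-0.63) and the smallest in culture 3 (-0.43). The difference was -0.52 (-30.5%), with adjusted p-values in limma of 0.342 and 0.0457, and with the block the adjusted p moved past the threshold after cyclic loess (0.0534) or median centring (0.0566).

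Below these, Noc3l (-0.32), the helicase Ddx21 (-0.26), the GTPase Gnl2 (-0.25), the rRNA methyltransferases Ftsj3 (-0.23) and Nop2 (-0.22), Wdr12 (-0.19), the helicase Ddx18 (-0.16) and the RNA kinase Nol9 (-0.14) were each lower in all 3 cultures. Wdr12, Bop1 and Pes1 form one complex. Its members differed by -0.19, -0.06 and -0.02, and the 3 cultures of Wdr12 lay within -0.20 and -0.19 while Pes1 was above 0 in culture 6. Nop16 differed by -0.02, and Noc2l, Rrp1b and Rrs1 by 0.02, 0.02 and 0.03. Rrs1 had the widest spread among the members, with -0.18, -0.10 and 0.39 by culture. Gnl3 (nucleostemin) has a row shared with the snoRNA gene Snord19 that measured 8.93, 8.42 and 8.50 at 21% oxygen and 8.41, 7.89 and 8.15 at 1% oxygen, a difference of -0.46. The row of Ebna1bp2 is shared with D4Ertd617e and measured 8.02, 7.84 and 7.97 at 21% oxygen and 7.88, 7.83 and 7.85 at 1% oxygen, a difference of -0.10.

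RNA polymerase I was represented by its largest subunit Polr1a, the other large subunit Polr1b, Polr1c, which it shares with RNA polymerase III, and its initiation factor Rrn3. Rrn3, the factor through which growth signals reach the polymerase, measured 8.77, 8.53 and 8.69 in cultures 3, 4 and 6 at 21% oxygen and 8.69, 8.34 and 8.59 at 1% oxygen. Each culture was lower, the groups overlapped, and the difference was -0.12 (SE 0.11). Polr1a measured 8.70, 8.51 and 8.66 at 21% oxygen and 8.61, 8.34 and 8.58 at 1% oxygen. It had the same form, with a difference of -0.11 (SE 0.10). Polr1b differed by -0.07 and Polr1c by 0.08, the highest of the members, with culture 3 at -0.07 and cultures 4 and 6 at 0.13 and 0.18. At an unadjusted p under 0.05, 0 of the 4 genes were lower or higher in either fit.

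Genes of high intensity differed from dimmer ones on these arrays. Among other genes with a mean level from 7 to 8 the median difference was 0.02, from 8 to 9 it was -0.03, from 9 to 10 it was -0.06, from 10 to 11 it was -0.11 and from 11 to 12 it was -0.15. The members, which lay between 7.03 and 11.10, had medians of -0.12 (13 members), -0.16 (19), -0.26 (7), -0.08 (2) and -0.21 (1) in the same bins. They thus lay below the other genes in each bin except that from 10 to 11, which holds Ncl and Pes1. Over the 11022 other genes in the members' range of levels, the median difference was -0.03, 58.1% were below 0, 30.9% were lower in all 3 cultures and 13.1% had no overlap between groups. In that range, 11.0% were lower at an unadjusted p under 0.05 without and 17.3% with the block.

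Each member was also set against the genes within 0.25 log2 units of its own mean, between 373 and 2456 genes. The difference of 36 of 42 members lay below the median of these genes, and the member's difference minus that median had a median of -0.12 over the members. For 8 members fewer than 5%, and for 12 fewer than 10%, of the genes of like brightness had a lower difference. Nop58, Gtpbp4, Nol8, Dkc1, Nol10, Wdr75, Nol11 and Noc3l are the 8. Noc2l and Polr1c stood at the other side, with 71.4% and 83.8% of the genes of like brightness lower. The part of the normalization in this relation with brightness was not tested.

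**Figure D3:**
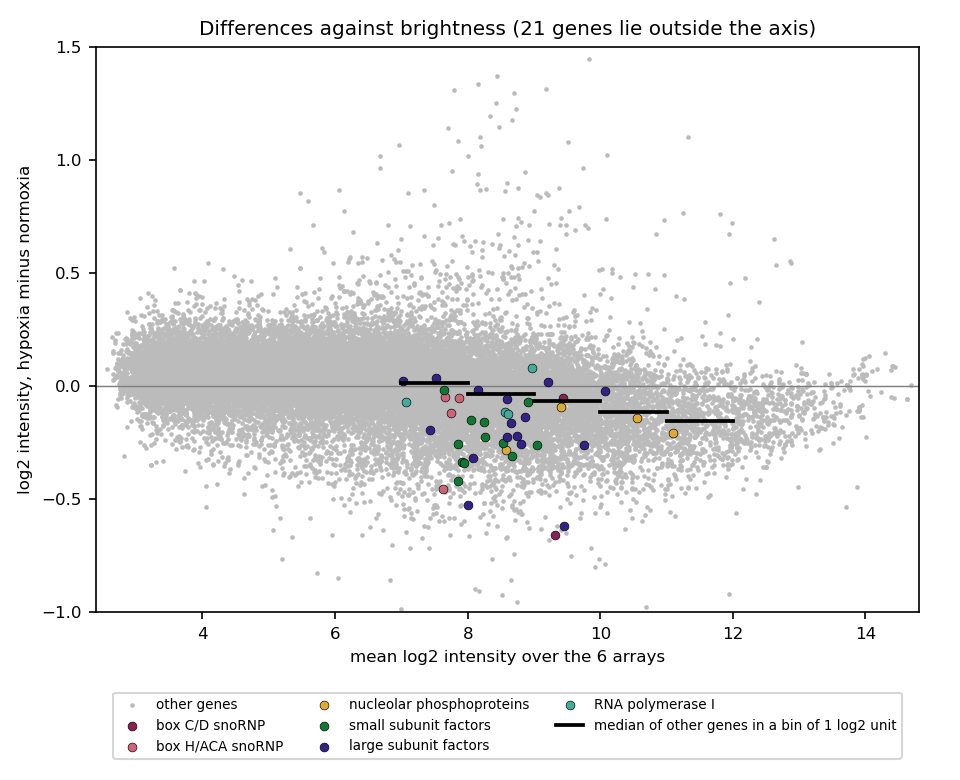
Log2 difference, hypoxia minus normoxia (y axis), against the mean log2 intensity over the 6 arrays (x axis) for all genes (grey) and the 42 members (coloured by role), with black lines for the median of the other genes in bins 1 log2 unit wide. The black lines step from 0.02 down to -0.15 as intensity rises, and most coloured points lie under the line of their bin. The axis leaves out 21 genes.

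The 3 cultures had the same order at 21% and 1% oxygen in 27 of the 42 members (64.3%) and in 31.6% of the 11022 other genes of their range of levels. At 21% oxygen culture 4 was the lowest of the 3 for 36 members and culture 3 the highest for 29, and at 1% oxygen culture 4 was the lowest for 35, while culture 3 was the highest for 22 and culture 6 for 19. Among the other genes of the range, culture 4 was the lowest for 39.8% and 34.1%, and culture 3 the highest for 34.1% and 38.0%. The median level of the members at 21% oxygen was 8.73, 8.51 and 8.65 in cultures 3, 4 and 6, and at 1% oxygen it was 8.53, 8.31 and 8.49. The gap between cultures 3 and 4 was about as large as that between the conditions.
The SD between cultures had a median over the members of 0.13 at 21% and 0.16 at 1% oxygen, and that of the within-culture difference was 0.08. In 26 of the 42 members (61.9%) the SD of the differences was below both group SDs, as in 30.2% of the other genes of the range, whose medians were 0.09, 0.12 and 0.10. Leaving out 1 array of culture 4 moved the members' median, to -0.25 without its normoxia array and to -0.09 without its hypoxia array. Without both arrays of culture 4 it was -0.17.

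The other genes of the pathway, listed from general knowledge, gave the following counts. Of 144 further biogenesis factors 136 were measured and 120 (88.2%) were below 0, with a median difference of -0.10. In all 3 cultures 67 (49.3%) were lower, and for 31 (22.8%) the hypoxia arrays lay below the normoxia arrays. Over all genes these shares were 40.3%, 17.5% and 7.58%. Over the 11022 other genes in the members' range of levels they were 58.1%, 30.9% and 13.1%. The factors' own levels ran from 4.67 to 10.3, and 0 passed an adjusted p of 0.05 in limma in either fit. At an unadjusted p under 0.05, 6.1% of all genes were lower and 4.28% higher without the block. With it, 9.26% were lower and 7.68% higher. In the members' range of levels 11.0% were lower without and 17.3% with the block. Of the factors, 28 were lower without and 44 with the block, and 2 were higher in each. Their median was -0.13 for 49 other small subunit factors, -0.10 for 43 other large subunit factors, -0.16 for 21 genes of the RNA exosome and RNase MRP, -0.07 for 9 snoRNP assembly genes and -0.04 for 14 other RNA polymerase I genes. The differences between these lists were not tested.

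The ribosomal proteins themselves, which the factors assemble with rRNA, had a median difference nearer to 0 than the members. Of 78 cytosolic ribosomal proteins 33 had a row with their symbol alone. Of these, 31 (93.9%) were below 0, with 40.3% of all genes. In all 3 cultures 5 (15.2%) were lower, with 17.5% of all genes. Their median was -0.06, and 0 genes were called in limma in either fit. By culture the median was -0.17, -0.02 and -0.01 in cultures 3, 4 and 6, so most of it lay in culture 3. The proteins' mean levels ran from 7.01 to 12.9, with array medians from 10.3 to 10.6. At levels from 10 to 11, 76.6% of genes outside the members were below 0 and 44.8% were lower in all 3 cultures. Their median was -0.11. From 11 to 12 these values were 85.6%, 48.3% and -0.15. The ribosomal proteins' median was nearer to 0 than that of either bin. They were not set one by one against genes of like brightness, and the difference from the members was not tested.

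**Figure D4:**
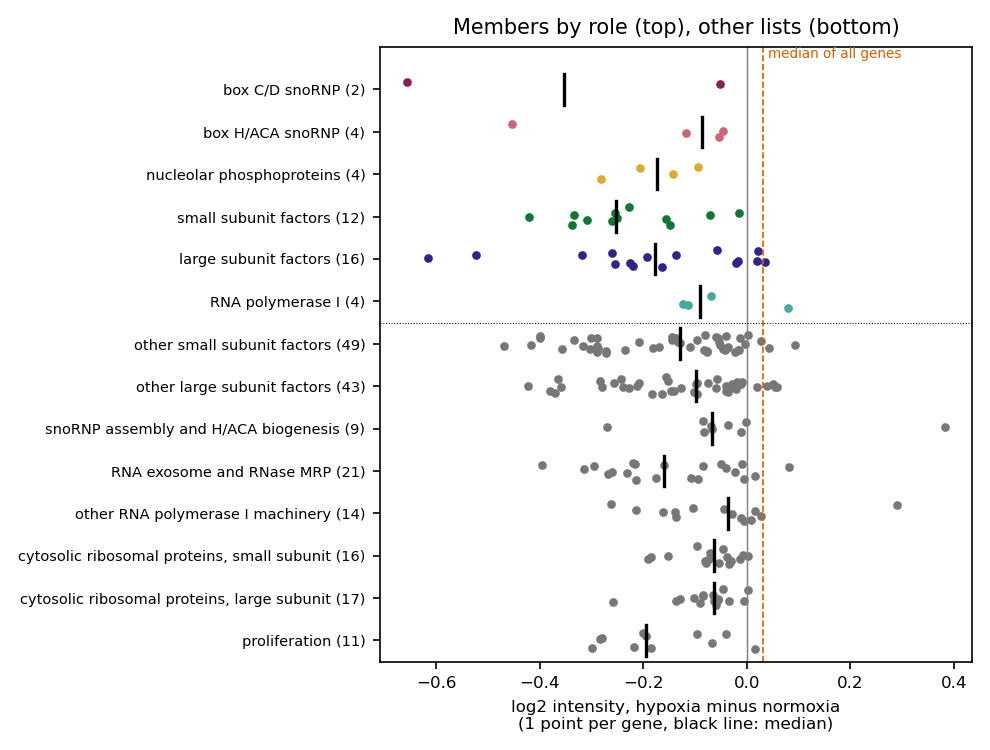
Log2 difference, hypoxia minus normoxia (x axis), for 1 point per gene, with the members by role above the dotted line and the other lists below it. Black lines are medians, with the number of measured genes in parentheses, and the dashed line is the median of all genes (0.03). The medians of the 14 rows lie between -0.35 and -0.04, all left of the dashed line.

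Markers of proliferation and of other cell types were read on the same arrays. Of 12 proliferation genes 11 were measured, 10 were below 0 and 6 were lower in all 3 cultures. Their median difference was -0.20, with 0 called in either fit. Over all genes, 40.3% were below 0 and 17.5% were lower in all 3 cultures. Of 10 fibroblast and pericyte markers 9 were above 0 and 8 were higher in all 3 cultures, with a median of 0.48. At an unadjusted p under 0.05, 0 were higher without the block (4.28% of all genes) and 7 with it (7.68%). Col1a1 and Col3a1 passed the threshold with the block (adjusted p in limma 0.0460 and 0.0453). Mean levels of the fibroblast and pericyte markers lay between 5.28 (Rgs5) and 8.87 (Dcn). The log2 of their summed intensity ran from 10.7 to 12.3 at 21% oxygen and from 11.3 to 12.7 at 1% oxygen, with overlap between the groups. Of the other lists, 8 of 8 endothelial and 6 of 6 measured astrocyte markers were above 0. So were 6 of 6 measured oligodendrocyte lineage and 7 of 8 neuronal markers. The medians, in this order, were 0.18, 0.11, 0.08 and 0.10, and 0 were called. Over all genes, 18030 of 30176 were above 0, 24.8% were higher in all 3 cultures and the median was 0.03. None of the marker lists was set against genes of like brightness. The log2 of the summed intensity of the microglial markers lay between 15.26 and 15.29 at 21% oxygen. At 1% oxygen it lay between 15.17 and 15.24, so its groups did not overlap. The brightest markers weigh most in this sum. By gene, 8 of the 11 were below 0 and 3 above it, with a median difference of -0.11. For 1 of them the 3 hypoxia arrays lay below the 3 normoxia arrays. Among genes outside the members, medians fell from -0.03 at levels from 8 to 9 to -0.15 from 11 to 12. The part of proliferation or of the other cell types in the members' differences was not tested.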

How the data were processed

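The authors deposited 1 table of log2 intensities for 72688 features on 6 arrays, already background-corrected, quantile-normalized and summarised by RMA. Tools listed in the submitters' processing notes are RMA, limma and Affymetrix Expression Console, with the build mm10; for filters, nothing is given in the sources used here. No further scaling was applied, and how precise the values are is limited by the number of arrays.

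The array annotation gave 30638 features 1 symbol and 2176 several. It did not list 39874, and 0 symbols differed from RefSeq. Keeping the brightest row per symbol left 30176 genes (354 had more than 1 row). Groups came from the sample labels. Hypoxia minus normoxia was fitted in limma 3.58.1 (lmFit, eBayes; R 4.3.3). All p-values were adjusted by Benjamini and Hochberg's method over the 30176 genes, at a threshold of 0.05. The labels tie the arrays by culture: deviations from the group means correlated at 0.57, 0.40 and 0.22 within cultures and at -0.50 to 0.14 between them.

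The members and lists were chosen with earlier results of these data known. Every member is named, with the value of each array for those called in either fit and for the 2 largest differences per role. Of other lists, counts and medians are given, plus up to 3 genes called in either fit. Lists were summarised by counts and medians only. The alternatives were the culture as a block, array weights, 3 other scalings, a filter on low values, an intensity trend, the mean of all rows of a symbol, each array or culture left out, and a wider brightness window.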

Additional observations from a re-analysis of the deposited data

How the results depend on the processing

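Members called higher were 0 under every alternative run, and members called lower were 0 under every alternative without the replicate block. With the replicate block 3 members were lower, with 35 genes lower and 127 higher over all genes, against 5 and 63 without it. The fits that combine the block with another choice were added after seeing the data. They called 3 members with quantile normalization (35 genes lower, 154 higher), 2 with cyclic loess (17 and 106), 2 with median centring (19 and 80) and 5 with array weights (144 and 249), which added Dkc1 and Nol10 at adjusted p-values in limma of 0.0300 and 0.0452. With the block and without culture 3, 0 members were called (1 gene lower, 17 higher), without culture 4, 2 (94 and 135), and without culture 6, 2 (22 and 121).

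Without the block, genes called lower and higher numbered 32 and 116 with array weights, 2 and 49 with median centring, 4 and 73 with quantile normalization, and 3 and 66 with cyclic loess. Leaving out 1 array or culture gave 0 to 16 lower and 4 to 40 higher. The median difference of the members stayed below 0 throughout, at -0.25 with array weights and -0.18 with the block and array weights. It was -0.19 with median centring, -0.12 with quantile normalization or cyclic loess, and -0.246 to -0.085 on leaving out arrays or cultures. The weights were 0.37, 2.43 and 0.61 for the hypoxia arrays of cultures 3, 4 and 6, and 1.10, 1.25 and 1.31 for the normoxia arrays. The median of the member differences minus those of genes of like brightness was -0.19 with array weights. It was -0.12 with the block and array weights, and ranged from -0.225 to -0.056 on leaving out arrays or cultures. Both extremes came from leaving out an array of culture 4, and the cause was not tested.

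Members that turned sign under an alternative all had a difference within 0.12 of 0. Array weights gave 0.0116 for Nop16 and -0.0087 for Noc2l, and with the block 0.0407 for Nop16 and -0.0198 for Rrs1. Median centring gave -0.0038 for Rrp1b and -0.0048 for Noc2l. Quantile normalization gave 0.0266 for Fbl, 0.0106 for Nop16 and 0.0741 for Pes1, and cyclic loess 0.0178, 0.0065 and 0.0597, and these values are the same with the block. On leaving out arrays or cultures the differences ran from -0.1582 to 0.0228 for Fbl, -0.1533 to 0.0908 for Nhp2, -0.2392 to 0.0195 for Nop10, -0.0857 to 0.0490 for Rrp12, -0.1149 to 0.0996 for Nop16, -0.0645 to 0.0344 for Pes1, -0.1454 to 0.0109 for Bop1, -0.0071 to 0.0460 for Rrp1b, -0.1418 to 0.1441 for Rrs1 and -0.0441 to 0.0713 for Noc2l. With the block, leaving out culture 3 turned Fbl (0.0228), Nhp2 (0.0908), Nop10 (0.0195), Rrp12 (0.0027) and Nop16 (0.0996), leaving out culture 4 turned Rrp12 (0.0181), Pes1 (0.0087) and Noc2l (-0.0162), and leaving out culture 6 turned Rrs1 (-0.1418). The other members kept their direction under every alternative run. The 3 arrays per group limit the precision, and intensity over background was not assessed here.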
